A study of Homo sapiens with 22 samples.

Results

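The gene deserts of the human autosomes were read for piggyBac insertions in K562 cells. A desert was a gap of at least 500 kb between the bodies of neighbouring protein-coding genes of GENCODE v44 on chromosomes 1 to 22 (genome build hg38), and gaps with fewer than 1000 TTAA sites were to be left out. The rule gave 630 deserts among 14887 gaps between protein-coding gene bodies, and no gap fell below the TTAA minimum. The deserts held 851 Mb, or 29.6% of the autosomal bases, with a median length of 924 kb. K562 is an established human erythroleukaemia line. Cells received a donor plasmid with a barcoded self-reporting piggyBac transposon and a helper plasmid that encodes the transposase, either hyPBase (a hyperactive piggyBac transposase) in 10 libraries or the variant labelled hyPBase-centrip in 10 libraries. All cells were selected with puromycin for 11 days, and insertions were read from the RNA that the transposon transcribes out into the flanking DNA, with RNA taken from 3 transfected cultures at a time. An insertion was therefore counted only where the cassette was transcribed and the cell survived, so fewer insertions and less recovered RNA cannot be told apart. Each library held 1509672 to 3596762 insertions, of which 222933 to 528523 lay in deserts.

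Gene deserts are long stretches without protein-coding genes. Many lie beside developmental or cell-type regulator genes and hold distal enhancers that act on a gene far away, and many others are AT-rich, late-replicating and bound to the nuclear lamina. The piggyBac transposase inserts its DNA at the 4-base site TTAA and is known to prefer open, active chromatin.

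The sequences that carry the densest insertion in these deserts are shown first. For the 12 densest 10 kb windows (called spots here, at most 1 per desert), the most often hit TTAA site was located, and the 50 bases on either side are given in hg38 for 7 of the 12 spots. Capitals mark the TTAA target site itself.
ZNF254-UQCRFS1 spot, chr19:28605905-28606008, plus strand: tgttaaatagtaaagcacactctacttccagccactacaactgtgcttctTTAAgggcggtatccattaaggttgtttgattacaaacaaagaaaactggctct
EYS-ADGRB3 spot, chr6:68042709-68042812, plus strand: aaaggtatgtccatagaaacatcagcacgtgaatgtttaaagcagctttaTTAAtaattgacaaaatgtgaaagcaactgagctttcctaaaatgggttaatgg
FAT4-INTU spot, chr4:126732799-126732902, plus strand: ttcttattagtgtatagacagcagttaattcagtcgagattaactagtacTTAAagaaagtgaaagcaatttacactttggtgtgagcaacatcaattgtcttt
ADCYAP1-METTL4 spot, chr18:2303102-2303205, plus strand: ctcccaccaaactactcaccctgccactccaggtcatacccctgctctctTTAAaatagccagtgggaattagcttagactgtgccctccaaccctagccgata
FAM78B-POGK spot, chr1:166705766-166705869, plus strand: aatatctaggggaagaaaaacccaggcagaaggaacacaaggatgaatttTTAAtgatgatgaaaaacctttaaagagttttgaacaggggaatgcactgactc
TMEM132B-TMEM132C spot, chr12:126908774-126908877, plus strand: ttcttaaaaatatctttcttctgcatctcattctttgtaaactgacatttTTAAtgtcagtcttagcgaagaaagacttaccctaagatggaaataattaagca
BAMBI-LYZL1 spot, chr10:28808699-28808802, plus strand: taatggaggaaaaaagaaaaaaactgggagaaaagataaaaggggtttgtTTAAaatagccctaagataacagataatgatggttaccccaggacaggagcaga
These 7 sites collected between 565 and 827 insertions each over the 20 libraries, and every one was hit in all 20. The most that the tables could list at 1 site was 52 lines per library (26 barcodes in 2 orientations), so the site in the ADCYAP1-METTL4 desert, at 39 to 42 lines per library and 79.5% of the 1040 possible, was near that ceiling. A second cell with the same barcode, site and orientation adds no line.

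Deserts as a whole were hit less often than the rest of the autosomes. The autosomes averaged 2.82 insertions per TTAA site over the pooled libraries, deserts averaged 1.31 and the sequence outside them 3.54. Deserts held 32.6% of the autosomal TTAA sites (5867210 of 18023956) and 15.2% of the autosomal insertions (7707320 of 50758287). At least 1 insertion was found at 37.4% of desert TTAA sites and at 54.6% of the other sites. Relative density, defined as insertions per TTAA site divided by the autosomal mean, is used for all densities that follow. It was 0.468 ± 0.0072 (SD, n = 10) in the hyPBase libraries, with a lowest value of 0.456, a median of 0.469 and a highest value of 0.479. In the hyPBase-centrip libraries it was 0.463 ± 0.0106 (SD, n = 10), with a lowest value of 0.436, a median of 0.466 and a highest value of 0.473. All 20 libraries lay below 1, and an exact permutation test by sign flips gave, for either helper, p = 0.00195, the smallest it can give with 10 libraries. The helpers overlapped and differed by -0.00477 (permutation test, two-sided, p = 0.272, adjusted p = 0.408 over 6 helper comparisons).

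The density fell in steps with the length of the gap. Gaps under 100 kb had a relative density of 1.88 ± 0.027 (SD, n = 10) in the hyPBase libraries, gaps of 100 to 250 kb 1.35 ± 0.017, and the 572 gaps of 250 to 500 kb 0.953 ± 0.0101. Deserts of 500 kb to 1 Mb (346) reached 0.611 ± 0.0054 and those of 1 Mb or more (284) 0.410 ± 0.0083. The hyPBase-centrip libraries gave the same order, with 0.958 ± 0.0126, 0.613 ± 0.0065 and 0.402 ± 0.0129 for the last 3 classes. In every library the deserts of either length class lay below the gaps of 250 to 500 kb, whose lowest library stood at 0.940 against a highest of 0.626 among the shorter deserts. Merged gene bodies stood at 1.19 ± 0.0062 in the hyPBase libraries.

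The 630 deserts differed from each other far more than the libraries did. The median desert stood at 0.369, with the 5th and 95th percentiles at 0.114 and 1.75. In all, 84 deserts (13.3%) lay above the autosomal mean in the pooled data, and 76 of them did so in all 20 libraries. Where each TTAA site hit counts once over all libraries, 189 lay above it. Another 539 lay below the mean in all 20. At the low end, 213 deserts (33.8%) were under 0.25, and at the high end 22 reached at least 2. Across the 20 libraries the SD of a desert's relative density was 6.39% of its mean in the median desert, and at most 9.56% among the deserts above the mean. A set of 107 deserts held 50% of all desert insertions. Set against the 1 Mb on either side, 93 deserts (14.8%) were denser than their own flanks, and the median desert held 0.422 of its flanks' density.

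**Figure D1:**
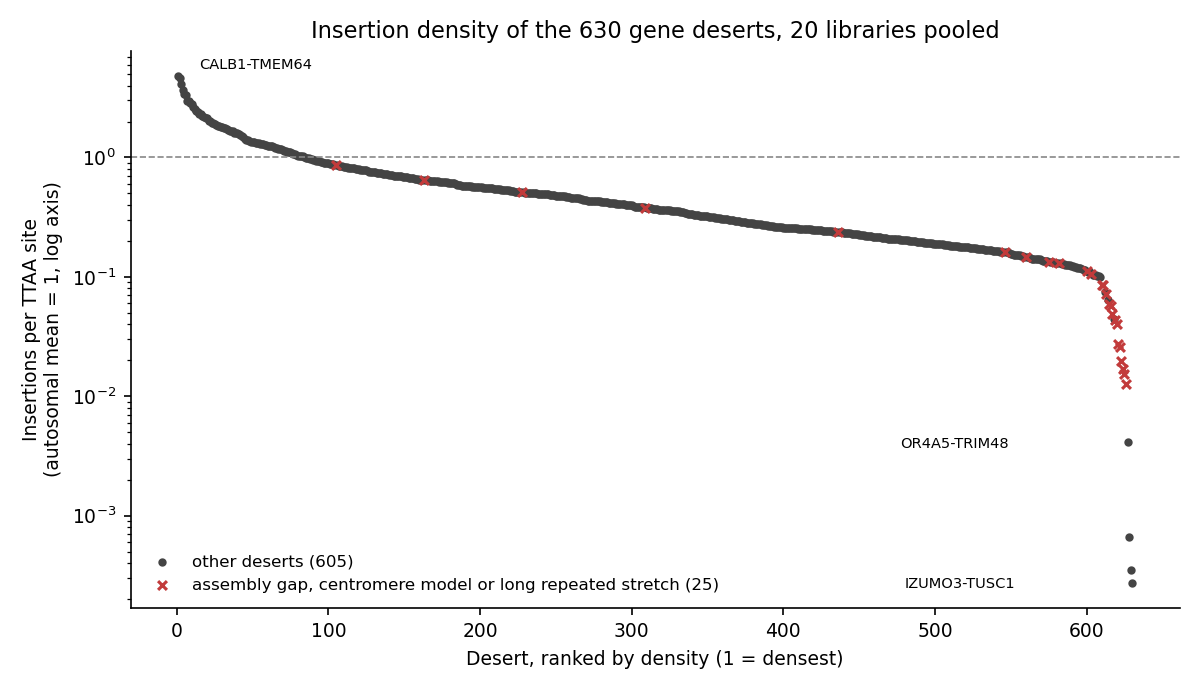
The relative insertion density of each desert (vertical log axis, autosomal mean = 1, 20 libraries pooled) is plotted against its rank, with 1 the densest. Crosses are the 25 deserts with an assembly gap, a centromere model or a long repeated stretch (over 10% unknown bases, or at least 100 kb without a TTAA site of unique flanks), and dots the other 605. The 84 deserts above the dashed line exceed the autosomal mean, and the last 4 dots at the lower right are the nearly empty deserts on chromosomes 9 and 11.

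The 6 densest deserts stood at 3.34 to 4.80. CALB1-TMEM64 (chr8:90095476-90621994, 527 kb), between the calcium-binding protein calbindin and a transmembrane protein, had a relative density of 4.80. Its hyPBase libraries had a lowest value of 4.79, a median of 4.98 and a highest of 5.34, and its hyPBase-centrip libraries 4.41, 4.67 and 5.15. The second, MYC-GSDMC (chr8:127742952-129748195, 2005 kb), lies next to the growth-promoting transcription factor gene MYC and stood at 4.61. Its libraries ran from 4.42 through a median of 4.69 to 4.90 with hyPBase and from 4.36 through 4.57 to 4.96 with hyPBase-centrip. This desert alone held 2.15% of all desert insertions. Long noncoding RNA (lncRNA) genes cover 80.5% of the first and 85.0% of the second.

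The third and the fourth are bounded by genes of the Polycomb system. CD83-JARID2 (chr6:14136919-15246068), between a surface protein of activated antigen-presenting cells and an accessory subunit of Polycomb repressive complex 2, stood at 4.10, with libraries from 3.82 to 4.80. PROK2-RYBP (chr3:71785207-72371824), between a secreted prokineticin and a subunit of Polycomb repressive complex 1, stood at 3.66, with libraries from 3.41 to 4.32. LPIN1-TRIB2 (chr2:11827410-12716909), between a phosphatidate phosphatase and a pseudokinase, stood at 3.37 (3.13 to 3.74). BAMBI-LYZL1 (chr10:28682933-29289060), between a decoy receptor of TGF-beta signalling and a lysozyme-like gene, stood at 3.34 (3.21 to 3.85). No library of these 6 deserts fell below 3 times the autosomal mean. Their surroundings differed. The 1 Mb flanks of CD83-JARID2 stood at 4.37, above the desert, whereas those of BAMBI-LYZL1 stood at 0.822, and this desert was 4.07 times as dense as the sequence around it.

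Within these deserts the density was spread widely. The share of 10 kb windows above the autosomal mean was 95.5% in CD83-JARID2, 90.9% in LPIN1-TRIB2, 89.7% in PROK2-RYBP and 88.9% in MYC-GSDMC. It was 78.0% in BAMBI-LYZL1 and 76.9% in CALB1-TMEM64. The median window of MYC-GSDMC stood at 2.30 and that of PROK2-RYBP at 2.73. Such filling was rare, since only 32 of the 630 deserts had at least 50% of their windows above the mean, and 158 had none.

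The 3 emptiest deserts are neighbours on the short arm of chromosome 9. IZUMO3-TUSC1 (chr9:24545947-25676968) held 8 insertions at 10330 TTAA sites in the 20 libraries together, 4 with each helper. This is a relative density of 0.000275, with an exact 95% Poisson interval of 0.000119 to 0.000542 that covers counting error only. DMRTA1-ELAVL2 (chr9:22455741-23690103) held 10 insertions and ELAVL2-IZUMO3 (chr9:23826338-24542951) held 11, with relative densities of 0.000351 and 0.00066. No library listed more than 3 insertions in any of the 3, and 14, 13 and 11 libraries listed none. ELAVL2 encodes a neuronal RNA-binding protein and IZUMO3 a member of a sperm protein family. Between 95.7% and 97.0% of the TTAA sites of these deserts have flanks that occur at no other TTAA site of the genome. K562 cells are known to have lost part of this arm. DNA copy number was not measured in these libraries.

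The next 3 differ from them in mappability. OR4A5-TRIM48 (chr11:54707903-55262154), next to an olfactory receptor gene near the centromere, held 31 insertions, 13 with hyPBase and 18 with hyPBase-centrip, and 86.5% of its sites had unique flanks. TP53TG3-TP53TG3C on chromosome 16 held 115 insertions with 2.80% unique sites, and ZNF716-ZNF722 on chromosome 7 held 1120 with 33.9%. Both include an assembly gap, a centromere model or a long stretch of repeated sequence. The 3 longest deserts are of the same kind. SRGAP2C-H3-7 on chromosome 1 (22.5 Mb) stood at 0.134, SPATA31A6-SPATA31A5 on chromosome 9 (18.7 Mb) at 0.106 and ENSG00000284209-SHCBP1 on chromosome 16 (12.2 Mb) at 0.0712, with 16.2%, 16.6% and 40.5% unique sites. Without the 25 deserts of this kind, the relative density of the deserts averaged 0.482 over the 20 libraries, against 0.466 with them.

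Several properties of a desert varied with its density. Over the 605 deserts outside that group, relative density correlated with the density of the 1 Mb flanks (Spearman's rho = 0.54, n = 603), with GC content (rho = 0.42), with the share of the desert covered by lncRNA genes (rho = 0.20) and with the share of unique sites (rho = 0.14). It was lower in longer deserts (rho = -0.28). These are descriptions across regions of the same 20 libraries, and neighbouring deserts share a flank. By chromosome, the median desert was densest on chromosome 19 (0.732, only 2 deserts), chromosome 15 (0.649, 19 deserts) and chromosome 7 (0.628, 30 deserts), and least dense on chromosome 9 (0.176, 32 deserts) and chromosome 14 (0.178, 17 deserts). No desert exceeded the autosomal mean on chromosome 13 (27 deserts), 14 (17), 17 (8) or 19 (2). As wholes these chromosomes stood at 0.576, 0.717, 1.46 and 1.19.

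Deserts were also grouped by the kind of gene at the edge. Of the listed blood and erythroid regulators, 16 deserts had at least 1 at an edge, and 8 of them (50.0%) lay above the autosomal mean, beside 84 of 630 (13.3%) over all deserts. Their median was 0.992 beside 0.369. Against their own 1 Mb flanks they had a median of 0.500 beside 0.422 over all deserts, and 4 of the 16 (25%) were denser than their flanks, beside 14.8%. After MYC-GSDMC the densest were JUN-FGGY at 2.44 (libraries from 2.26 to 2.60), next to the AP-1 transcription factor gene JUN, and CITED2-NMBR at 1.35 (1.29 to 1.41), next to a transcriptional co-regulator needed in blood stem cells. The desert beside BCL11A, the repressor of fetal globin genes, stood at 1.25. Not all of the list was dense: FERMT1-BMP2 stood at 0.189 and BMP2-HAO1 at 0.119, on either side of a bone morphogenetic protein gene. These and the BCL11A desert were chosen after their values were seen.

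Genes of neural adhesion and synapse families bounded 118 deserts, of which 4 (3.39%) lay above the mean and 57 (48.3%) below 0.25. This list was drawn by the opening letters of gene symbols, so it can include members with other roles. Their median was 0.254. Against their flanks the median was 0.420, near the 0.422 of all deserts, and 21 (17.8%) were denser than their flanks. The 3 densest were TBL1XR1-KCNMB2 at 2.18, next to a potassium channel subunit, MYOM2-CSMD1 at 2.16 and ASPH-NKAIN3 at 1.76. Developmental transcription factor genes, also listed by symbol, bounded 71 deserts with a median of 0.388, close to that of all deserts. Of these, 12 (16.9%) exceeded the mean. Against their flanks the median was 0.387, and 8 (11.3%) were denser. MAF-DYNLRB2 at 2.78, beside a bZIP factor gene, POU3F1-RRAGC at 2.40 and MCTP2-NR2F2 at 2.12, beside an orphan nuclear receptor gene, led this list. The blood and developmental lists shared 5 deserts, and the neural and developmental lists shared 6.

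Within deserts, density declined with distance from the bounding genes. In the 20 kb next to a gene it was 1.03 ± 0.0096 (SD, n = 10) in the hyPBase libraries and 1.02 ± 0.0088 in the hyPBase-centrip libraries. At 20 to 50 kb it was 0.751 ± 0.0085 and 0.749 ± 0.0052, at 50 to 100 kb 0.641 ± 0.0048 and 0.640 ± 0.0067, and at 100 to 250 kb 0.553 ± 0.0056 and 0.552 ± 0.0082. Beyond 250 kb it was 0.368 ± 0.0087 and 0.361 ± 0.0132. The ratio of the outer 50 kb to the sequence beyond 250 kb was 2.35 ± 0.045 with hyPBase (lowest 2.29, median 2.33, highest 2.45) and 2.39 ± 0.082 with hyPBase-centrip (lowest 2.33, median 2.36, highest 2.61). It exceeded 1 in all 20 libraries (exact sign-flip permutation test, p = 0.00195 for each helper) and differed by 0.0411 between the helpers (permutation test, p = 0.183, adjusted p = 0.365).

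**Figure D2:**
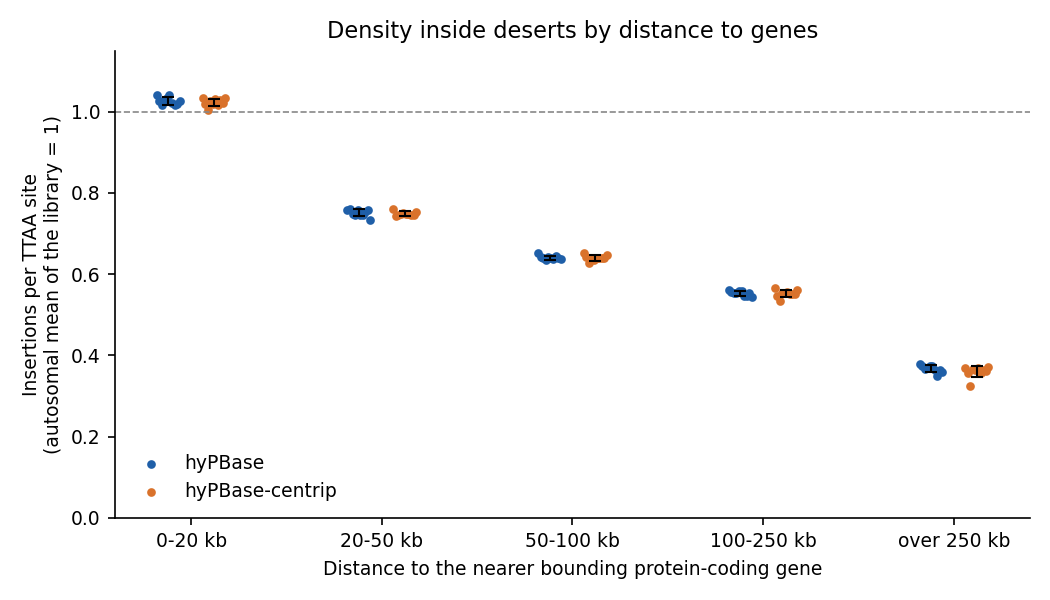
Relative density (vertical axis, autosomal mean of each library = 1) is shown for 5 classes of distance to the nearer bounding gene, with 1 point per library and black bars for the mean ± SD of 10 libraries. The values fall from about the autosomal mean beside the genes to 0.368 (hyPBase) and 0.361 (hyPBase-centrip) beyond 250 kb, and the helpers overlap in each class.

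Most of the desert sequence was hit less densely than the autosomal mean, and a small part of it was very dense. Of 76460 desert windows of 10 kb with at least 20 TTAA sites, 8.58% lay above the autosomal mean, beside 36.4% of 187569 windows elsewhere. The median desert window stood at 0.216 and the median window elsewhere at 0.710. The densest 5% of desert windows held 39.3% of the desert insertions, and the densest 1% held 20.6%. With barcodes collapsed, so that a site and orientation counts once in a library, the densest 5% held 27.7% and 12.9% of the desert windows lay above the mean. Where each TTAA site hit counts once over all libraries, these shares were 10.2% and 26.0%. Outside deserts the densest 5% of windows held 32.9%. At 5 times the autosomal mean or more there were 677 desert windows (0.885%), beside 4.43% of the windows elsewhere.

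These 677 windows formed 446 islands once neighbours were joined. The islands held 19.0% of the desert insertions on 0.806% of the desert TTAA sites. They lay in 189 deserts (30% of the 630), and 171 islands lay in deserts whose overall density was below the autosomal mean. Most were short, with 317 of a single window and a longest of 70 kb. Their median distance from a protein-coding gene was 199 kb. Within 50 kb of a gene lay 86 islands (19.3%), whereas 183 (41.0%) were at least 250 kb away and 76 at least 500 kb away. By comparison, 59.3% of all desert windows lay at least 250 kb from a gene. The farthest island, in NCAM2-MRPL39 on chromosome 21, was 1686 kb from the nearest protein-coding gene and stood at 11.5.

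Islands were spread over 189 deserts, and a few of these held 9 or more each. MYC-GSDMC held 14, with a summed length of 400 kb and 106561 insertions. They lay in 2 stretches, 1 between 147 and 807 kb from MYC and the other between 18 and 428 kb from GSDMC, a gasdermin gene. The densest of them, at 24.7 and 24.1, lay 18.2 and 158 kb from GSDMC. CITED2-NMBR held 12 islands, of which the nearest lay 5.35 kb and the farthest 775 kb from the CITED2 end. MCTP2-NR2F2 held 10, and CD83-JARID2 and ZEB2-ACVR2A held 9 each. In ZEB2-ACVR2A, 6 islands lay within 349 kb of ZEB2, a zinc finger repressor gene, and the other 3 lay between 1169 and 1219 kb from the nearer gene. These deserts were chosen after their number of islands was seen.

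The 12 spots stood at 34.5 to 60.5 times the autosomal mean. The densest, in ZNF254-UQCRFS1 (chr19:28600001-28610000), held 9534 insertions at 56 TTAA sites, of which 54 were hit, and lay 595 kb from UQCRFS1, a subunit of respiratory complex III. Its libraries had a lowest value of 172, a median of 190 and a highest of 242 CPM (insertions per 1000000 autosomal insertions) with hyPBase, and 160, 181 and 265 with hyPBase-centrip. The median window of that desert, which includes the centromere of chromosome 19, was empty. The spot of EYS-ADGRB3 (chr6:68040001-68050000) stood at 57.5, 585 kb from ADGRB3, an adhesion G-protein coupled receptor, and at 126 times its own desert's median window. Its libraries ran from 266 through 298 to 359 CPM with hyPBase and from 252 through 299 to 339 with hyPBase-centrip. For all 12 spots, the least dense library was still at least 28.6 times its autosomal mean.

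The spots named here lay between 94.5 kb (CALB1-TMEM64) and 1238 kb (TMEM132B-TMEM132C) from the nearer gene. The spot of TMEM132B-TMEM132C (chr12:126900001-126910000) stood at 40.9, more than 1 Mb from either gene (1238 and 1357 kb), and at 149 times the median window of its desert. That of FAT4-INTU (chr4:126730001-126740000), between an atypical cadherin and a planar polarity gene, stood at 48.8 and lay 883 kb from the nearer gene. That of ADCYAP1-METTL4 (chr18:2300001-2310000) also stood at 48.8, 228 kb from METTL4. On chromosome 8, the spots of MYC-GSDMC, CALB1-TMEM64 and MYOM2-CSMD1 stood at 48.6, 44.7 and 36.3, and the first lies in CCDC26, a lncRNA gene. FAM78B-POGK and POU3F1-RRAGC on chromosome 1 stood at 43.1 and 34.7, and BAMBI-LYZL1 on chromosome 10 at 34.5. Annotated lncRNA genes overlapped 9 of the 12 spots, and the exceptions were FAM78B-POGK, TMEM132B-TMEM132C and POU3F1-RRAGC.

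**Figure D3:**
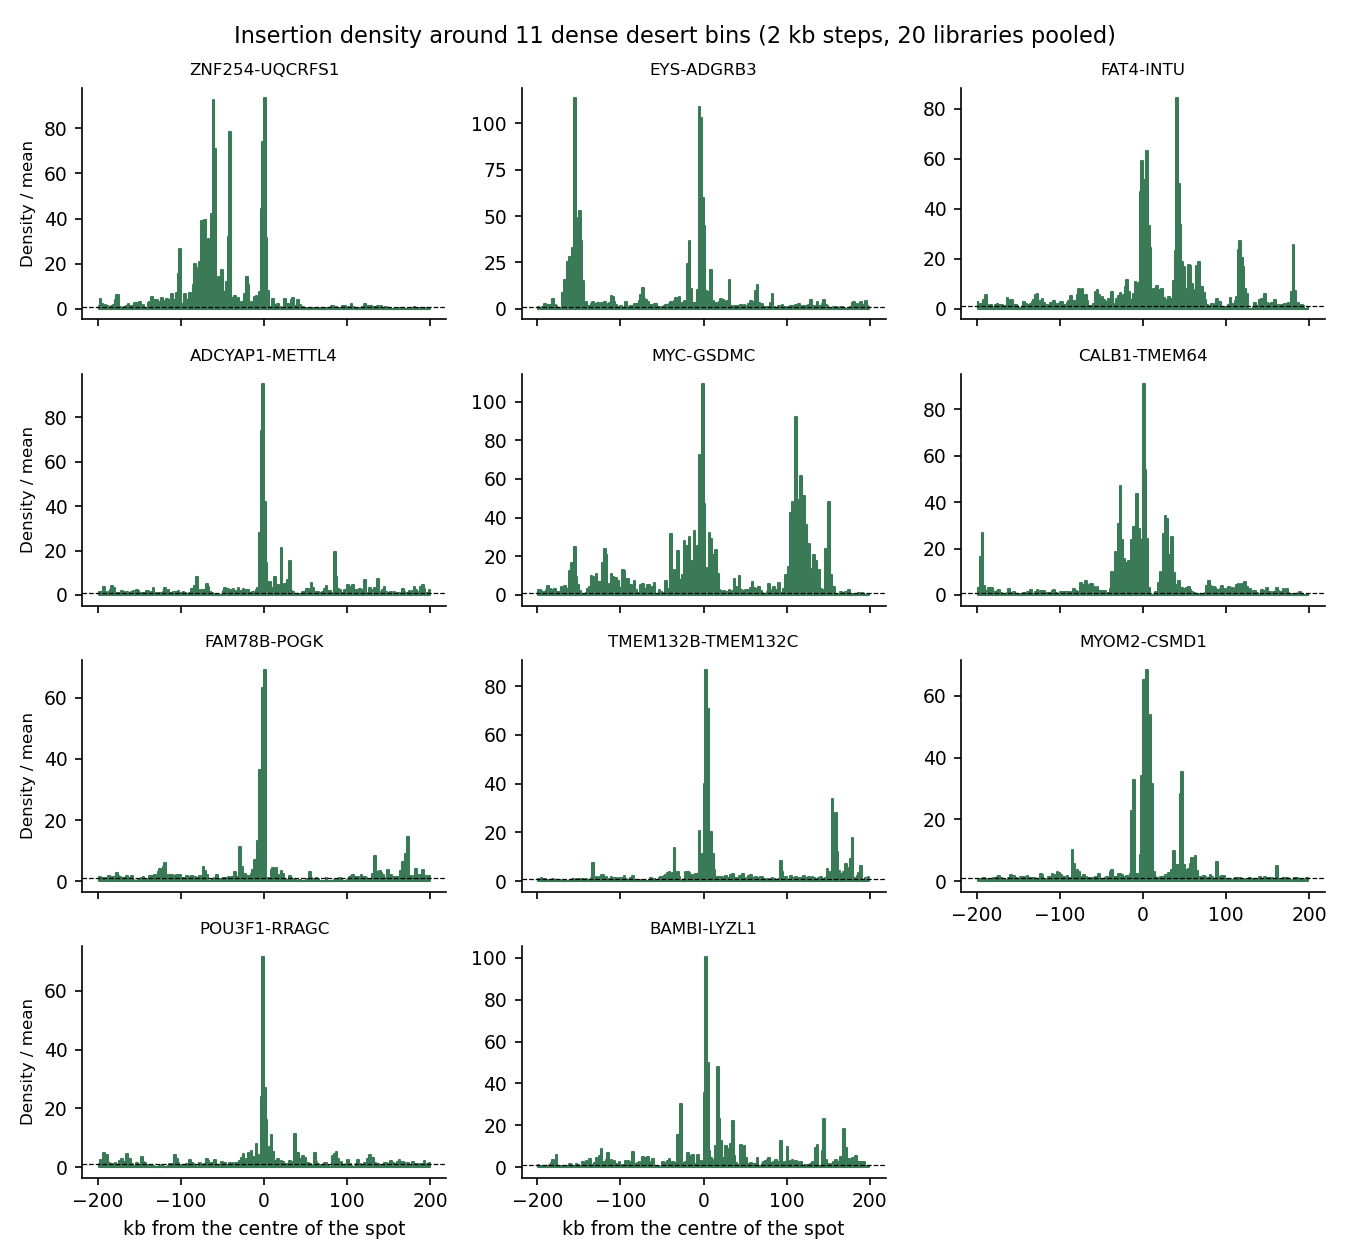
Relative density (vertical axis, autosomal mean = 1 at the dashed line, own scale in each panel) is shown in 2 kb steps over 200 kb on either side of the centre of 11 of the spots, 20 libraries pooled; steps with fewer than 3 TTAA sites are drawn at 0. The peaks are narrow in ADCYAP1-METTL4, FAM78B-POGK and POU3F1-RRAGC, while EYS-ADGRB3, MYC-GSDMC and ZNF254-UQCRFS1 show further peaks of like height 50 to 200 kb away.

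No spot rested on 1 site or 1 library. Between 83.3% and 100% of the TTAA sites of a spot were hit, and the most often hit site held 4.88% to 12.7% of its insertions. In the fit across all 10 kb windows of the autosomes, 2 spots differed between the helpers. Of all windows fitted, 715 of 67759 (1.06%) passed, and of the desert windows 58 of 7215 (0.804%). The spots were picked for their density and hold many insertions, which makes small changes easier to call. That of FAT4-INTU was lower with hyPBase-centrip, at 282 ± 10.4 against 247 ± 19.0 CPM (SD, n = 10 each; log2 fold -0.20, SE 0.039, edgeR quasi-likelihood adjusted p = 0.000361). That of BAMBI-LYZL1 was lower as well, at 138 ± 9.49 against 125 ± 10.4 (log2 fold -0.17, SE 0.045, edgeR adjusted p = 0.0278; 0.0767 with replicate numbers as a block). Neither call held with barcodes collapsed, where edgeR called no window (adjusted p = 1.00 for both). A site then counts at most 2 lines in a library, which limits the change that can show where most sites are hit. Both calls were also lost at 2 or more reads per insertion (edgeR adjusted p = 0.0807 for FAT4-INTU and 0.705 for BAMBI-LYZL1). With no filter on low counts that of BAMBI-LYZL1 was lost as well (edgeR adjusted p = 0.112). The other 10 had edgeR adjusted p-values of 0.0721 to 0.941. The hyPBase-centrip libraries were also the deeper ones (median 2779460 insertions against 2499130), and the part of depth in the 2 calls was not tested.

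**Figure D4:**
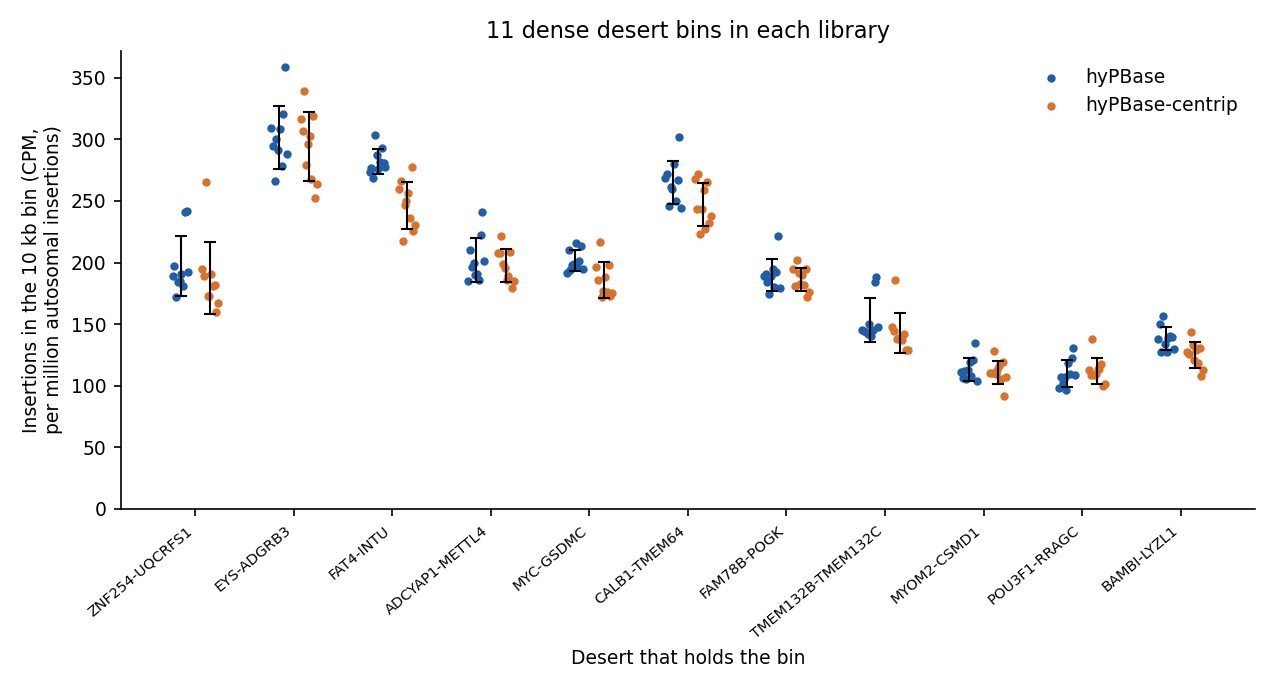
CPM in 11 of the 12 spots (vertical axis, from 0) are shown with 1 point per library for the 10 hyPBase and 10 hyPBase-centrip libraries, and bars give the mean ± SD. The EYS-ADGRB3 spot is the highest by this measure (252 to 359 CPM), and the helpers overlap at each of the 11.

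Desert lncRNA genes took more insertions than the rest of the desert. Such genes held 31.8% of the desert TTAA sites, 3859 lncRNA genes overlapped a desert, and 18 deserts had none. Density inside lncRNA genes was 1.54 ± 0.015 (SD, n = 10) times that of the rest of the deserts with hyPBase and 1.55 ± 0.026 with hyPBase-centrip. Within 1 kb of an annotated lncRNA start it was 3.29 ± 0.11 times the rest with hyPBase (lowest 3.18, median 3.27, highest 3.55). With hyPBase-centrip it was 3.32 ± 0.18 (lowest 3.13, median 3.28, highest 3.78). Over the 20 libraries the ratio averaged 3.30, and it was 2.04 with barcodes collapsed and 1.85 with each TTAA site hit counted once per library. All 20 libraries exceeded 1 (exact sign-flip permutation test, p = 0.00195 for each helper), and the helpers differed by 0.0286 (permutation test, p = 0.704, adjusted p = 0.829). The 45040 TTAA sites this close to a lncRNA start had a relative density of 1.50, above the autosomal mean.

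The orientation of the insertions inside these lncRNA genes leaned to the opposite strand. In lncRNA genes on 1 strand only, the transposon lay on the gene's own strand in 47.1% ± 0.18 of insertions (SD, n = 10) with hyPBase, where libraries had a lowest value of 46.8%, a median of 47.1% and a highest of 47.3%. With hyPBase-centrip it was 47.7% ± 0.17, with 47.4%, 47.7% and 47.9%. The groups did not overlap. All 20 libraries lay below 50% (exact sign-flip permutation test, p = 0.00195 for each helper), and the helpers differed by 0.618 percentage points (permutation test, p = 6e-05, adjusted p = 0.00036). In lncRNA genes outside deserts the share was 51.2% ± 0.16 with hyPBase and 51.5% ± 0.13 with hyPBase-centrip, above 50% in all 20 libraries. Sites outside deserts include those where a lncRNA gene overlaps a protein-coding gene, which deserts exclude. The part of this in the contrast was not tested. Over deserts with at least 200 such insertions (554), the median share was 48.2%, and 376 lay below 50%. Over all desert insertions, 50.0% were on the plus strand of the genome.

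Beside the bounding genes the lean differed by side. Within 50 kb of a bounding gene, at either end, 48.5% ± 0.22 of desert insertions lay on the nearer gene's strand with hyPBase. With hyPBase-centrip it was 48.5% ± 0.32. The share was below 50% in all 20 libraries (exact sign-flip permutation test, p = 0.00195 for each helper). The helper difference was -0.0271 points (permutation test, p = 0.829, adjusted p = 0.829). Over the 20 libraries the share within 50 kb averaged 48.5%, and 49.4% with barcodes collapsed. It was 47.6% in gaps of at least 1 Mb and 47.6% without sites in lncRNA genes. Beyond the 3′ end of a gene, the same-strand share with hyPBase was 44.4% ± 0.46 within 20 kb, 46.6% ± 0.46 at 20 to 50 kb and 45.7% ± 0.59 at 50 to 100 kb. It was still 49.0% ± 0.17 beyond 250 kb. Upstream of the 5′ end it was 49.0% ± 0.50 within 20 kb, but 52.4% ± 0.63 at 20 to 50 kb and 53.0% ± 0.42 at 50 to 100 kb. Within 50 kb of a 3′ end, 255 of 404 deserts with at least 200 insertions there (63.1%) lay below 50%, beside 185 of 412 (44.9%) at 5′ ends.

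Split by side, the helpers did differ. In all 5 distance classes the same-strand share beyond 3′ ends was higher with hyPBase-centrip than with hyPBase, and upstream of 5′ ends it was lower. At 3′ ends the difference was 1.22 points within 20 kb and 1.29 points at 20 to 50 kb (permutation test, p = 2e-05 each, the smallest it can give; adjusted p = 6.67e-05 over 10 comparisons). At 5′ ends it was -1.12 points within 20 kb (permutation test, p = 0.00014, adjusted p = 0.00035). The smallest differences, beyond 250 kb, were 0.154 points at 3′ ends (permutation test, adjusted p = 0.0451) and -0.310 points at 5′ ends (permutation test, adjusted p = 0.00569). The hyPBase-centrip libraries were also the deeper ones, with a median of 2779460 insertions against 2499130, and the part of depth in this difference was not tested.

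Orientation also separated the helpers at the spot of TMEM132B-TMEM132C. The share of insertions on the plus strand was 48.1% ± 2.14 (SD, n = 10) with hyPBase (lowest 43.8%, median 48.0%, highest 51.3%) and 52.9% ± 2.64 with hyPBase-centrip (lowest 49.2%, median 52.4%, highest 58.9%). The libraries overlapped, and the difference was 4.81 points (permutation test, p = 0.00014, adjusted p = 0.00084 over 12 spots). A further 10 spots had adjusted p-values of 0.180 to 0.721 in the same permutation test. The amount of insertion at the TMEM132B-TMEM132C spot did not pass the helper test (edgeR adjusted p = 0.247).

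The bases next to the TTAA site went with the density at a site, in deserts as elsewhere. Grouping both strands, TTTAAA was the most used context in deserts, at 1.69 ± 0.0063 (SD, n = 10 hyPBase libraries) times the mean of all desert sites, followed by CTTAAA at 1.25 ± 0.0129 and ATTAAA at 1.11 ± 0.0089. GTTAAC was the least used, at 0.0887 ± 0.0018. Outside deserts the same contexts stood at 1.64, 1.29, 1.07 and 0.0927 over the 20 libraries. GTTAAA stood at 0.455 ± 0.0028 in deserts and 0.529 ± 0.0034 outside. Among the printed sites, 2 were CTTAAA, 2 TTTAAA, 2 ATTAAA and 1 ATTAAT.

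Transcription factor motifs were counted in the 300 bases centred on a TTAA site, on both strands. At the most often hit site of each of the 677 dense windows, the AP-1 motif TGAGTCA was found in 116 windows (17.1%), beside 4.26% of the windows at all 5867210 desert TTAA sites. The GATA motif (AGATAA or TGATAA) was found in 330 (48.7%) beside 44.6%. The ETS motif CCGGAAG was found in 7 (1.03%) beside 0.286%. The 300 bases at these sites of the dense windows also had a higher GC content, 40.1% beside 34.2%, and its part in these shares was not tested. The 300 bases at the most often hit site of each of the 12 spots carried no match to AP-1 or ETS. Those of BAMBI-LYZL1 and CALB1-TMEM64 held 3 and 2 GATA matches. Those of ZNF254-UQCRFS1, TMEM132B-TMEM132C and POU3F1-RRAGC held 1 each, and the other spots had none. The rest of each spot was not searched. A match is only a run of letters in the window.

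Insertions in deserts were backed by fewer reads than those elsewhere. With hyPBase, a desert insertion had 3.33 ± 0.61 reads and any other 3.98 ± 0.76 (SD, n = 10), and with hyPBase-centrip 2.61 ± 0.46 and 3.07 ± 0.56. Within a library the ratio was 0.838 ± 0.0135 with hyPBase (lowest 0.823, median 0.838, highest 0.861) and 0.852 ± 0.0228 with hyPBase-centrip (lowest 0.818, median 0.855, highest 0.896). It was below 1 in all 20 libraries (exact sign-flip permutation test, p = 0.00195 for each helper). The helpers differed by 0.0147 (permutation test, p = 0.096, adjusted p = 0.288).

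Individual deserts differed little between the helpers. In one edgeR quasi-likelihood fit over 19249 gaps and merged gene bodies, 448 (2.33%) passed an adjusted p of 0.05. Of these, 164 were higher and 284 lower with hyPBase-centrip. Of 625 deserts fitted, 28 (4.48%) passed, 7 higher and 21 lower with hyPBase-centrip. The fitted deserts were larger targets than the fitted segments in general, with a median of 7607 pooled insertions against 1089. The median size of the 28 changes was 0.13 on the log2 scale, and the extremes were 0.18 and -0.21. The count depended on how insertions were counted: with barcodes collapsed to 1 line per site and orientation in a library, 2 deserts passed, both higher, and at 2 or more reads per insertion 46 passed, all lower.

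PRR16-FTMT on chromosome 5 had the smallest adjusted p. It received 415 ± 18.9 CPM with hyPBase (lowest 376, median 418, highest 438) and 365 ± 29.3 with hyPBase-centrip (lowest 303, median 369, highest 408), a log2 fold of -0.19 (SE 0.030, edgeR adjusted p = 4.26e-06). The groups overlapped. PTH2R-MAP2 on chromosome 2, between a parathyroid hormone receptor and a neuronal microtubule protein gene, fell from 139 ± 9.23 to 123 ± 7.50 (log2 fold -0.19, SE 0.040, edgeR adjusted p = 0.00104). ICOS-PARD3B on chromosome 2, next to a T cell costimulator gene, fell from 225 ± 7.17 to 207 ± 9.16 (log2 fold -0.14, SE 0.032, edgeR adjusted p = 0.00347).

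Among the 7 that were higher, FOXL1-C16orf95 on chromosome 16, beside a forkhead factor gene, rose from 108 ± 4.91 to 125 ± 9.61 CPM (log2 fold 0.18, SE 0.041, edgeR adjusted p = 0.00348). Its hyPBase libraries had a lowest value of 101, a median of 108 and a highest of 116, and its hyPBase-centrip libraries 111, 123 and 138. ASPH-NKAIN3 on chromosome 8 rose from 387 ± 19.4 to 420 ± 9.23 (log2 fold 0.11, SE 0.028, edgeR adjusted p = 0.00934). KRR1-PHLDA1 on chromosome 12 rose from 357 ± 11.3 to 389 ± 11.2 (log2 fold 0.11, SE 0.027, edgeR adjusted p = 0.0104).

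The direction went with the density of the desert. Of the 208 fitted deserts with a relative density under 0.25, 178 (85.6%) had a fold below 0 and 6 passed the test, all of them lower with hyPBase-centrip. Of 333 between 0.25 and 1, 208 (62.5%) lay below 0, with 2 higher and 12 lower among those that passed. Of the 84 denser ones, 46 (54.8%) lay below 0, with 5 higher and 3 lower. The median log2 fold was -0.057, -0.017 and -0.006 in the 3 classes, and -0.043, -0.009 and -0.005 without hyPBase-centrip replicate 3, the library with the lowest desert density. The classes are described and were not tested against each other.

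**Figure D5:**
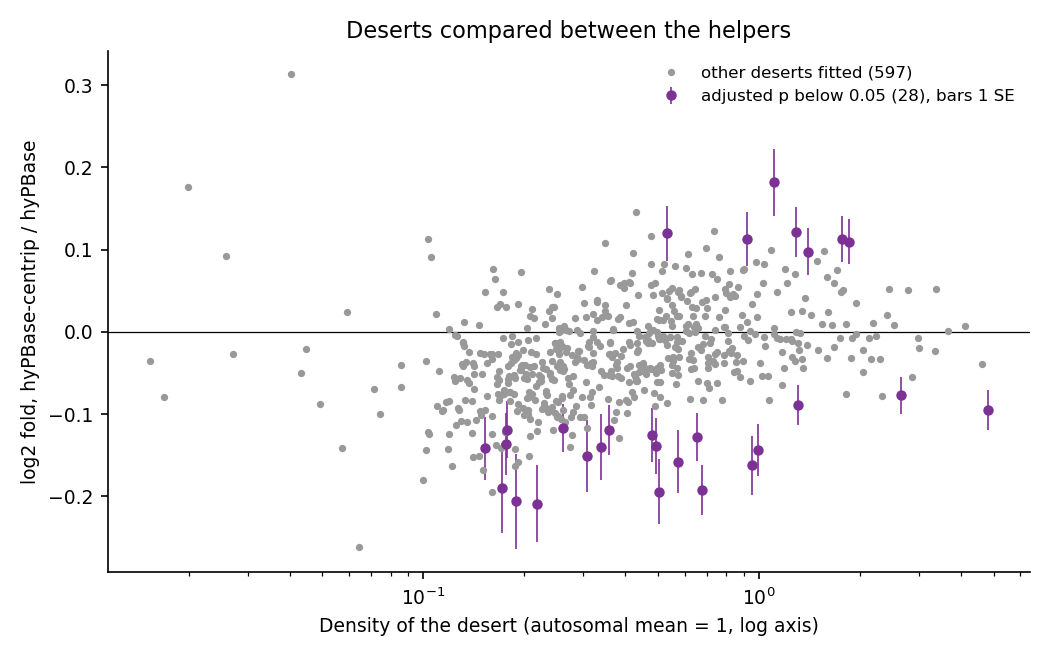
The log2 fold of hyPBase-centrip over hyPBase (vertical axis) is plotted against the relative density of each of the 625 fitted deserts (log axis, autosomal mean = 1). The 28 deserts with an adjusted p below 0.05 are purple with bars of 1 SE, and all lie within 0.21 of 0; the least dense deserts sit mostly below the line.

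The same fit over 67759 autosomal windows of 10 kb called 715 (1.06%), 211 higher and 504 lower with hyPBase-centrip. Of 7215 desert windows fitted, 58 (0.804%) passed, 16 higher and 42 lower with hyPBase-centrip. With barcodes collapsed edgeR called 0, with 267 at an unadjusted p below 0.05. The smallest adjusted p belonged to a window of GOLIM4-MECOM (chr3:168150001-168160000), which stood at 6.51 times the autosomal mean. It lies 54.1 kb from GOLIM4, a Golgi membrane protein gene, and 923 kb from MECOM, a blood stem cell factor gene. It received 26.0 ± 2.90 CPM with hyPBase and 17.9 ± 2.11 with hyPBase-centrip, a log2 fold of -0.55 (SE 0.085, edgeR adjusted p = 2.65e-06). A window of HLX-DUSP10 (chr1:221100001-221110000), 215 kb from the homeobox gene HLX and 591 kb from the phosphatase gene DUSP10, rose from 16.2 ± 2.99 to 23.3 ± 4.10 (log2 fold 0.48, SE 0.092, edgeR adjusted p = 0.00024). These 2 windows were chosen after their values were seen.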

How the data were processed

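The 20 libraries labelled hyPBase or hyPBase-centrip were used. Libraries whose labels gave 2 transposases were put in no group and were not analysed here. The deposited tables hold 1 line per insertion (position, read count, orientation, barcode), made by the authors from reads mapped to hg38. Their processing notes name Trimmomatic, BWA and SAMtools, and versions and read filters are not given in the sources used here. Read counts were used as deposited, a line counted as 1 insertion whatever its reads, and libraries held 1509672 to 3596762 insertions. Every line on chromosomes 1 to 22 lay on a TTAA site of hg38. A site was called unique where its 50 flanking bases on each side occur at no other TTAA site. Repeated sequence lowers the density that mapping can return.

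Genes came from GENCODE v44. Densities, shares and ratios were computed per library. Tests within a helper were exact sign-flip tests of the 10 libraries, and helpers were compared by permutation tests with 100000 resamples, two-sided, adjusted by the Benjamini-Hochberg method over each family. Segments and 10 kb windows were kept where 10 or more libraries held 10 or more insertions, and were tested by edgeR 4.0.16 (quasi-likelihood, TMM) in R 4.3.3, with DESeq2 1.42.0 as an alternative. In counts simulated for the segments with a fixed dispersion of 0.005, edgeR recovered 87.1% of 194 changes of 1.5-fold and 42.0% of 193 changes of 1.25-fold. Of the calls, 5.59% and 7.95% were false. The changes called in deserts, between -0.21 and 0.18 on the log2 scale, were smaller than either simulated fold, so these rates do not cover them. Named deserts were the 6 densest, the 6 least dense, the 3 longest, the 3 with the smallest adjusted p in each direction and the 3 densest of each gene list. Spots were the 12 densest windows, at most 1 per desert, and 1 of them is not reported here. Members and lists were chosen with earlier results of these data known. Nothing says that libraries came from separate cell cultures beyond their transfections, so p-values measure the spread between these libraries.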

Additional observations from a re-analysis of the deposited data

Results flagged for a closer look

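Of 18 groups of 10 libraries, 5 held a library set apart from the other 9 by more than 0.466 of the group's range. Chance marks about 1 group in 20. The groups are related measures of the same 20 libraries, so the flags are not independent and that rate is no test of their number. In 4 of the 5 the library set apart was hyPBase-centrip replicate 3. Its desert density was 0.436 against 0.459 for the next library, and its ratio of desert edge to interior was 2.61 against 2.40. Its density ratio at desert lncRNA starts was 3.78 against 3.37, and the densest 5% of windows held 43.5% of its desert insertions against 40.7%. In the fifth group hyPBase replicate 8 had an edge to interior ratio of 2.45 against 2.37 for the next. Replicate 3 held the fewest insertions of the hyPBase-centrip libraries, 1638175. With hyPBase, replicate 8 held 1774712, and replicate 9 held fewer, 1509672, but was not set apart. The part of depth was not tested.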

How the results depend on the processing

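The desert density, the edge, lncRNA start, orientation and read ratios kept their direction and their side of the threshold in each helper under every alternative run. At 2 or more reads per insertion the helper differences in desert density (-0.0133) and in reads per insertion (0.0189) had unadjusted permutation test p-values of 0.0452 and 0.0244, and 0.0811 and 0.0733 adjusted over the 6 comparisons. The helper difference at lncRNA starts, which passed in no setting, changed sign with barcodes collapsed (-0.00873), with TTAA sites hit (-0.00871), with 5 kb around a start (-0.00625) and without hyPBase-centrip replicate 3 (-0.0226). That beside bounding genes, which passed in none, changed sign for gaps of at least 1 Mb (0.0775), with barcodes collapsed (0.0863), without sites in lncRNA genes (0.172, chosen after seeing the data) and without hyPBase-centrip replicate 3 (0.0389). The cause was not tested.

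The share of desert windows above the mean was 8.05% at 2 or more reads, 6.51% in gaps of at least 1 Mb, 9.06% without deserts with assembly gaps or long repeats, 12.9% with barcodes collapsed and 26.0% by TTAA sites hit. The densest 5% of windows held 41.5%, 41.7%, 27.7% with barcodes collapsed, 10.2% by TTAA sites hit, 40.9% in 5 kb and 37.7% in 20 kb windows. Deserts above the mean numbered 24 among those of at least 1 Mb and 189 by TTAA sites hit. Deserts differing between helpers numbered 46 at 2 or more reads (0 higher), 2 with barcodes collapsed, 93 with library size as a term, 33 by DESeq2 and 24 without hyPBase-centrip replicate 3. Windows differing numbered 23 with no filter, 27 at 2 or more reads and 0 with barcodes collapsed by edgeR (267 at an unadjusted p below 0.05). With the replicate number as a block, 26 deserts and 52 windows differed. The numbers did not pair the libraries: correlations of same-numbered libraries ran from -0.045 to 0.040, and 3 of 10 correlated best with their own number.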
